A study of Homo sapiens with 18 samples.

Results

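MMP14-KO spheroids of MDA-MB-231 were followed over their second day in a collagen hydrogel. MDA-MB-231 is an established human triple-negative breast cancer line with mesenchymal traits, and MMP14 (MT1-MMP) is a membrane-anchored collagenase that cancer cells use to open a path through fibrillar collagen. The comparison takes 6 of the 18 libraries of the series, chosen by their genotype and treatment labels: 3 of MMP14-KO spheroids after 48 h in collagen and 3 of MMP14-KO spheroids after 24 h in collagen. Spheroids of 2000 cells had formed for 5 days in hanging droplets before embedding, and both groups were released with collagenase, so the pair differs in time alone as far as the labels say. The other 12 libraries, 3 to a group, are Wildtype spheroids after 48 h and after 24 h in collagen, digested in the same way, and MMP14-KO and Wildtype spheroids taken straight from droplets, which were not digested. The labels give neither whether the targeted cells are a clone or a pool, nor whether replicates are separate cultures, so p-values measure the spread between these libraries, which may be technical.

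Spheroids moved into collagen meet a new matrix and, at harvest, an enzyme bath. Immediate-early genes (the FOS, JUN, EGR and NR4A families and their feedback inhibitors) are switched on within minutes by growth factors, by adhesion and by tissue dissociation, without new protein synthesis. Genes of DNA replication are transcribed at the G1/S boundary under E2F factors. Genes of mitosis are transcribed later, in G2, by the MuvB complex with B-MYB and FOXM1, which reads a short promoter element called CHR, often together with CCAAT boxes bound by NF-Y.

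The 6 libraries held 19819401 to 25665238 counted reads each. MMP14 itself had 163, 143 and 138 CPM (read counts scaled to the TMM-adjusted size of the library) at 48 h and 166, 151 and 143 CPM at 24 h in MMP14-KO spheroids, against 1550, 1506 and 1284 CPM at 48 h and 1976, 1767 and 1713 CPM at 24 h in Wildtype spheroids. The MMP14-KO libraries all lay far under the Wildtype ones, without reaching 0. The markers of the line were present, with VIM at 3611 to 3867 CPM at 48 h and 3647 to 3717 CPM at 24 h before TMM scaling, while PGR, CD3E and TYROBP had no read in any of the 6 libraries. ERBB2 had 65.8 to 68.6 CPM at 48 h and 68.7 to 80.6 CPM at 24 h. Further markers of other cell types also had reads, so absence held for only some of them. On the same scale, the leukocyte marker CD68 had 87.9 to 112 CPM at 48 h and 97.5 to 134 CPM at 24 h. The luminal marker KRT19 had 395 to 450 CPM at 48 h and 428.5 to 470 CPM at 24 h. The endothelial marker TIE1 had 11.1 to 12.8 CPM at 48 h and 11.8 to 12.8 CPM at 24 h. On a first principal component of the 6 libraries (25.2% of the variance), the 48 h replicate 1 stood apart from the other 48 h libraries, at -0.22. That component put the 24 h libraries at -13.6 to -9.92 and the other 48 h libraries at 14.2 and 20.5. On the second (21.5%), the 48 h replicates 1, 2 and 3 lay at 22.9, 4.72 and -11.6, and the 24 h ones at -13.8, -1.47 and -0.71. The 48 h libraries were thus spread widely among themselves.

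Over the second day 648 of 17030 genes passed an adjusted p of 0.05 (edgeR's quasi-likelihood test, Benjamini-Hochberg adjustment), which is 3.81% of those tested. Of these, 353 were higher at 48 h (2.07%) and 295 were lower (1.73%), and 43 rose (0.252%) and 27 fell (0.159%) by at least 2-fold. The split depends on scaling: with library size alone it was 287 higher and 362 lower. The median log2 fold change over all genes was 0.002. Of the gene lists compared below, that of mitosis genes held the most genes that rose, 64 of 353. The list of immediate-early genes held the most that fell, 25 of 295. These lists held 73 and 45 of the 17030 genes tested. Most calls were on no list, 267 of those that rose and 225 of those that fell. Of the 43 that rose at least 2-fold, 19 were on a list of mitosis genes, and of the 27 that fell at least 2-fold, 10 were on a list of immediate-early genes. The number of calls depends on which library is left out, with totals of 854 without the 48 h replicate 2, 324 without the 24 h replicate 2, 342 without the 24 h replicate 3, 373 without the 24 h replicate 1, 400 without the 48 h replicate 3 and 434 without the 48 h replicate 1.

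**Figure D1:**
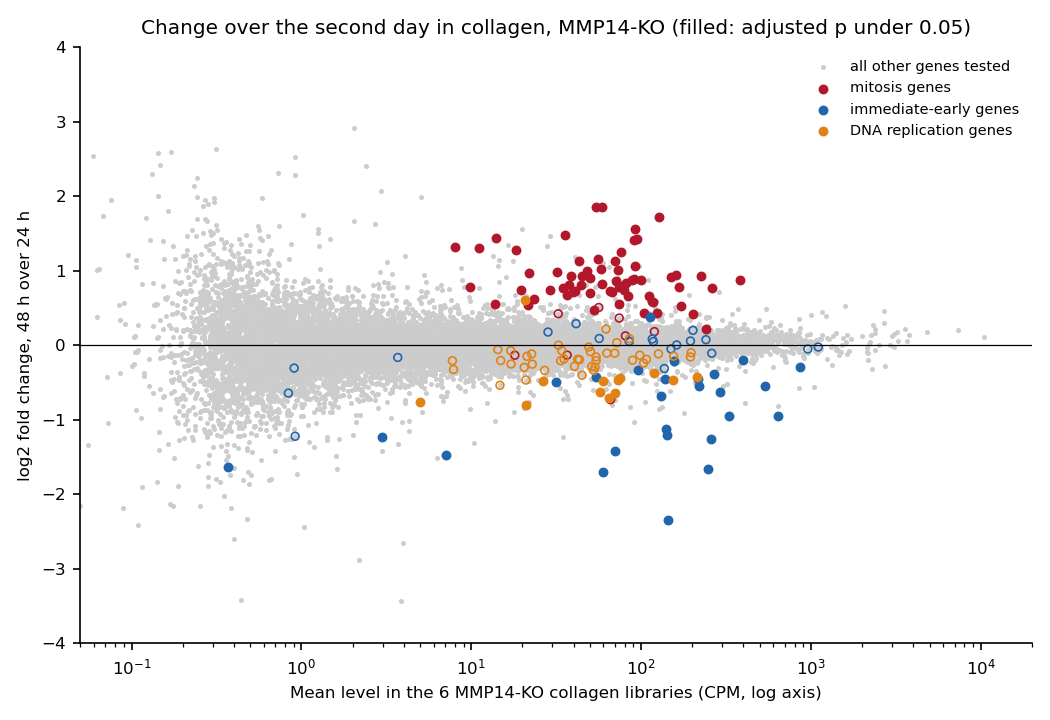
The log2 fold change at 48 h over 24 h in MMP14-KO spheroids (vertical axis) is plotted against the mean level in the 6 libraries (CPM, log axis). Filled points passed an adjusted p of 0.05 and open points did not, and 29 genes beyond 4 on the vertical axis, 4 of which passed, are not shown. Mitosis genes (red) lie mostly above 0, immediate-early genes (blue) mostly below it, and DNA replication genes (orange) mostly between -1 and 0.

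Gene lists were compared next; some genes stand on more than 1 list. Mitosis genes rose together. Of 73 tested, 64 were higher at 48 h and 1 was lower, with a median log2 fold change of 0.79 against 0.002 over all genes. The rise ran through every role on the list: 12 of 16 cyclins, kinases and entry factors, 19 of 20 kinesins and spindle proteins, 14 of 16 kinetochore and checkpoint genes, and 19 of 21 genes of anaphase, cytokinesis and chromatin. At 24 h, fewer cells in mitosis and less of these RNAs per cell cannot be told apart in bulk libraries. The 3 libraries of each group did not overlap, with 48 h higher, for 68 of the 73, against 11.1% of all genes. Leaving out 1 library gave 46 to 59 higher members.

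The entry switch into mitosis is the cyclin B and CDK1 kinase, guarded by WEE1 and opened by CDC25C and PLK1. CCNB1, cyclin B1 itself, had 207, 169 and 213 CPM at 48 h and 56.3, 58.4 and 63.9 CPM at 24 h. All 48 h libraries stood above all 24 h libraries, a log2 fold change of 1.72 (SE 0.157; edgeR, Benjamini-Hochberg adjusted p = 2.74e-05). PLK1, the polo-like kinase that drives entry and spindle assembly, had 87.6, 73.3 and 94.5 CPM at 48 h and 24.1, 24.0 and 22.8 CPM at 24 h, a log2 fold change of 1.85 (SE 0.159, edgeR adjusted p = 1.14e-05). AURKA, the centrosome kinase that activates PLK1, had 137, 122 and 135 CPM at 48 h and 46.9, 49.5 and 51.7 CPM at 24 h. Its groups did not overlap and it rose by 1.41 on the log2 scale. CCNB2 rose by 1.48, CDC25C by 1.32 and FOXM1, the transcription factor of this programme, by 0.79. CDK1, the catalytic partner of the cyclins, had 141, 132 and 145 CPM at 48 h and 85.8, 96.1 and 97.0 CPM at 24 h. Its groups did not overlap, but its log2 fold change of 0.58 did not pass (edgeR adjusted p = 0.0577).

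The one member that fell, WEE1, is the kinase that holds CDK1 inactive; it and the members below were named after their values were seen. WEE1 had 48.1, 49.1 and 51.1 CPM at 48 h and 82.5, 80.8 and 80.9 CPM at 24 h. The groups were well apart, with a log2 fold change of -0.72 (SE 0.0633, edgeR adjusted p = 3.96e-07). MYBL2, which encodes B-MYB, did not pass, with 37.3, 31.2 and 36.3 CPM at 48 h and 41.8, 35.8 and 37.6 CPM at 24 h, and neither did PKMYT1, the membrane-bound relative of WEE1 (log2 fold change -0.13).

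Among the motors, KIF20A, a kinesin needed for cytokinesis, had 92.7, 83.4 and 101 CPM at 48 h and 23.2, 27.6 and 25.5 CPM at 24 h. It rose 3.62-fold on average, with no overlap (log2 fold change 1.86, SE 0.171, edgeR adjusted p = 2.82e-05). KIF20A and PLK1 share genomic ground with genes on the opposite strand (BRD8 and CDC23, and ERN2), and whether the counting used strand is not given in the sources used here. DLGAP5, a spindle-microtubule protein, had 138, 124 and 148 CPM at 48 h and 42.0, 47.7 and 49.8 CPM at 24 h, rising by 1.55 on the log2 scale. KIF2C rose by 1.25, CDCA3 by 1.28, ASPM by 1.06 and KIF14 by 1.00.

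At the kinetochore and the anaphase-promoting complex, CDC20, the activator that triggers anaphase, had 141, 120.1 and 149.5 CPM at 48 h and 48.9, 51.2 and 53.4 CPM at 24 h. CENPA, the histone that marks the centromere, had 21.6, 18.6 and 20.6 CPM at 48 h and 7.19, 7.89 and 7.43 CPM at 24 h. Both were more than doubled in every 48 h library, with log2 fold changes of 1.418 for CDC20 and 1.43 for CENPA. UBE2C, the ubiquitin-conjugating enzyme of the same complex, rose by 1.13, and PTTG1, the securin marked for destruction by that complex, by 1.16. BIRC5 (survivin) rose by 1.02 and CDCA8 (borealin) by 1.14, both subunits of the chromosomal passenger complex. CENPE rose by 1.01 and NUF2 by 0.93. MKI67, the proliferation antigen, had 173, 214 and 248 CPM at 48 h and 115, 130 and 125 CPM at 24 h. Its rise of 0.78 passed with all libraries (edgeR adjusted p = 0.0118) and not without the 24 h replicate 1 or the 48 h replicate 3 (largest edgeR adjusted p 0.059). Outside the list, the rule for named genes added PIF1, a DNA helicase (log2 fold change 1.99), NEK2, a centrosome kinase (1.47), GAS2L3 (1.56), TROAP (1.34) and CDKN3, a phosphatase of CDK1 and CDK2 (1.33).

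**Figure D2:**
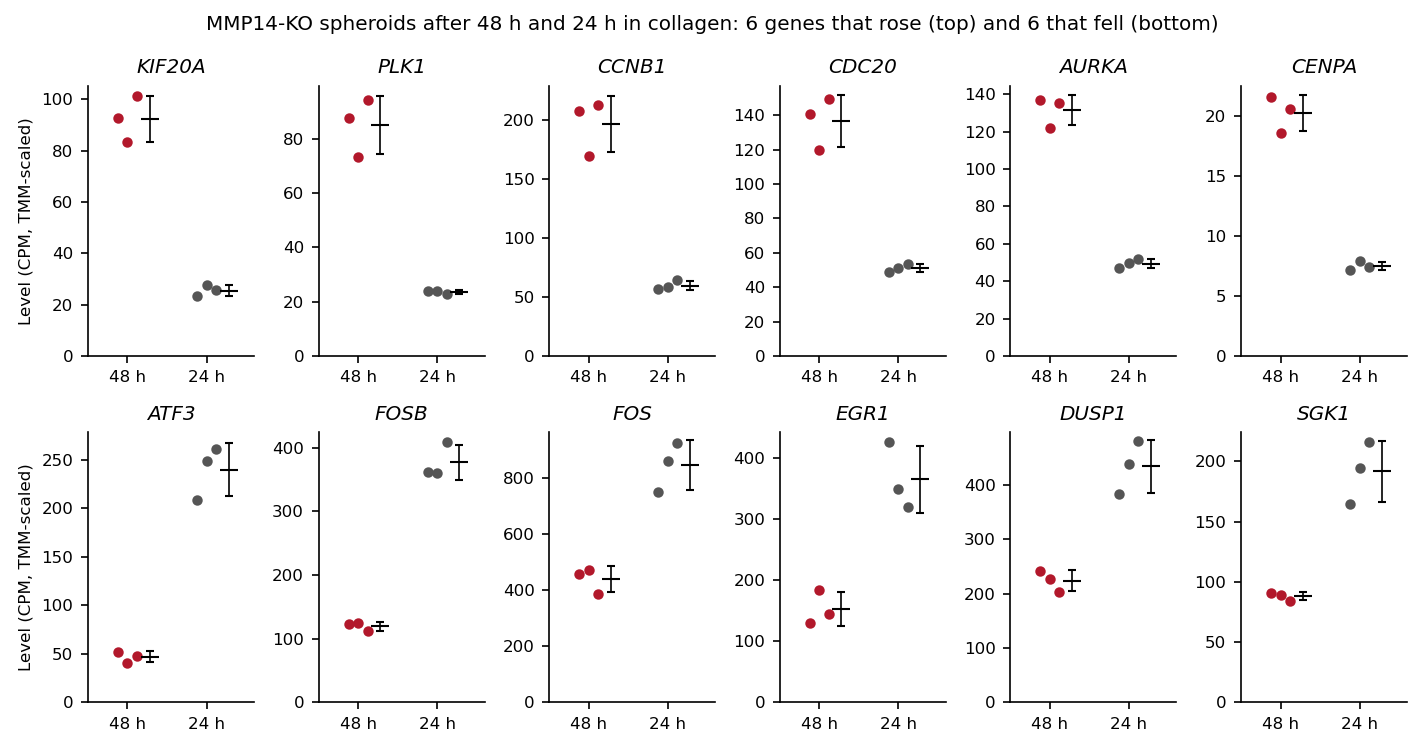
Each point is the level of a gene in one MMP14-KO library (CPM after TMM scaling), with 48 h left of 24 h, and the bar and whiskers are the mean and SD of 3 libraries. The 6 mitosis genes in the top row lie higher in every 48 h library than in any 24 h library, and the 6 immediate-early genes in the bottom row lie lower.

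The promoters of genes that moved together are shown because the CHR and CCAAT elements can be read in them directly. The 150 bases before the transcription start (RefSeq, GRCh38.p14) are printed in the direction of the gene, with CHR (TTTGAA or TTTAAA) and CCAAT matches on either strand in capitals. KIF20A lies on the plus strand at chr5:138178962-138179111, PLK1 on the plus strand at chr16:23678739-23678888, CCNB1 on the plus strand at chr5:69167000-69167149 and DLGAP5 on the minus strand at chr14:55191586-55191735.
KIF20A: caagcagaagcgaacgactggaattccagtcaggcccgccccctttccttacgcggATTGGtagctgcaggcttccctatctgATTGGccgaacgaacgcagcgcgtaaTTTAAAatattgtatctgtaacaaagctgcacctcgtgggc
PLK1: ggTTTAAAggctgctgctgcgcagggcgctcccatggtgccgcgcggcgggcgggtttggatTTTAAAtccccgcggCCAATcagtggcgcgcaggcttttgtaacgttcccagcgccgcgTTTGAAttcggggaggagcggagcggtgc
CCNB1: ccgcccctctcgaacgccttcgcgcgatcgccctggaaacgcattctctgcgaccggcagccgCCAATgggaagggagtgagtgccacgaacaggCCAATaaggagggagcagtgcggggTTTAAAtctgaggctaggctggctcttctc
DLGAP5: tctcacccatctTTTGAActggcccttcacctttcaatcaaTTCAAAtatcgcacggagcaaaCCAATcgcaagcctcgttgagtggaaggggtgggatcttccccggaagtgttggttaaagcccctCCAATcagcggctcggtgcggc
KIF20A and CCNB1 each show 1 CHR and 2 CCAAT matches, PLK1 shows 3 CHR and 1 CCAAT match, and DLGAP5 shows 2 of each. These 4 had the largest rises among the called mitosis genes at 5 CPM or more. In windows of 250 bases before to 50 bases after the start, 39 of the 61 mitosis genes with a promoter in the table (63.9%) held both CHR and CCAAT, against 9.13% of the 11816 tested genes with a promoter. CHR, with or without CCAAT, was in 82.0% of the mitosis genes and 21.8% of tested genes, and CCAAT in 77.0% and 42.8%. Among the 45 DNA replication genes with a promoter, 20% held CHR, 55.6% held CCAAT and 8.89% held both. A match is a description of the letters and not a bound site.

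Immediate-early genes mostly moved down. Of 45 tested, 25 were lower at 48 h and 1 was higher, with a median log2 fold change of -0.39. Members fell in each role: 4 of 9 AP-1 subunits, 11 of 18 EGR, NR4A, KLF and other early transcription factors, and 10 of 18 phosphatases and other feedback genes. For 27 of the 45 all 48 h libraries lay below all 24 h libraries, against 10.4% of all genes. Leaving out 1 library gave 19 to 23 lower members.

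ATF3, an AP-1 family factor induced by stress, showed the steepest of these falls. ATF3 had 52.0, 41.0 and 47.9 CPM at 48 h and 209, 249 and 261 CPM at 24 h. The 24 h libraries were 5.10-fold higher on average, with no overlap (log2 fold change -2.35, SE 0.120, edgeR adjusted p = 5.64e-08). FOSB had 124, 124 and 112 CPM at 48 h and 363, 360.3 and 409 CPM at 24 h, a log2 fold change of -1.66 (SE 0.0997, edgeR adjusted p = 5.64e-08). FOS, the founding member of AP-1, had 457, 473 and 386 CPM at 48 h and 749.8, 860.2 and 927 CPM at 24 h. It fell by 0.95 on the log2 scale, again with no overlap. JUNB fell by 0.63. The other AP-1 subunits, given after their values were seen, did not pass. JUN had 239, 274 and 239 CPM at 48 h and 284, 256 and 271 CPM at 24 h, with overlapping groups, and FOSL1 had 238, 255 and 248 CPM at 48 h and 259, 219 and 226 CPM at 24 h. JUND differed by -0.31 and FOSL2 by 0.20 on the log2 scale.

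EGR1, a zinc-finger factor at the head of the growth factor response, had 129, 184 and 144 CPM at 48 h and 426, 349 and 319 CPM at 24 h. All 48 h libraries were lower (log2 fold change -1.26, SE 0.115, edgeR adjusted p = 1.09e-05). NR4A1, an orphan nuclear receptor, had 34.2, 22.9 and 27.0 CPM at 48 h and 71.2, 95.4 and 108 CPM at 24 h, a fall of 1.70 on the log2 scale. EGR3 fell by 1.48, NR4A2 by 1.418, EGR2 by 1.23 and KLF4 by 0.69. IER5 was the 1 member that rose, with 137, 115 and 130 CPM at 48 h and 99.5, 94.8 and 98.5 CPM at 24 h (log2 fold change 0.38). It is named here after its values were seen.

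The brakes of the response fell with it. DUSP1, the phosphatase that switches off MAP kinases, had 242, 226 and 203 CPM at 48 h and 384, 438 and 479.9 CPM at 24 h, a log2 fold change of -0.95. ZFP36 (tristetraprolin), which destroys AU-rich mRNAs, had 94.5, 89.1 and 73.0 CPM at 48 h and 186, 197 and 212 CPM at 24 h. The groups were apart and the log2 fold change was -1.21. SGK1, a serum-induced kinase, fell by 1.12, PPP1R15A (GADD34) by 0.55 and DUSP5 by 0.45. MCL1, a short-lived survival protein of the BCL2 family, was the 1 apoptosis regulator of 14 that passed, with 656, 739.6 and 652 CPM at 48 h and 1001, 1037 and 1022 CPM at 24 h (log2 fold change -0.58).

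At 48 h, ATF3, FOSB and FOS lay between their droplet and 24 h levels. ATF3 averaged 8.77 CPM in MMP14-KO droplets, 239.7 CPM at 24 h and 46.9 CPM at 48 h, and FOSB averaged 1.12 CPM in droplets, 377 CPM at 24 h and 119.8 CPM at 48 h. FOS averaged 8.44 CPM in droplets, 846 CPM at 24 h and 439 CPM at 48 h. Others fell below their droplet level: NR4A2 averaged 46.9 CPM in droplets, 102 CPM at 24 h and 38.0 CPM at 48 h, EGR3 averaged 6.47, 10.4 and 3.74 CPM at these stages, and DUSP5 averaged 151, 160.4 and 117 CPM. Droplet spheroids differ from both others in lacking collagen and digestion alike, so those cannot be told apart. The part of the digestion in the second-day fall was not tested.

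The promoters of FOSB, FOS and EGR1 are shown for the CRE core, TGACGT on either strand, a motif bound by CREB and ATF factors, and for the CArG box of SRF. Both motifs were added after the sequences were seen. They stand in capitals in the 150 bases before the start, all on the plus strand, at chr19:45467846-45467995, chr14:75278678-75278827 and chr5:138465329-138465478.
FOSB: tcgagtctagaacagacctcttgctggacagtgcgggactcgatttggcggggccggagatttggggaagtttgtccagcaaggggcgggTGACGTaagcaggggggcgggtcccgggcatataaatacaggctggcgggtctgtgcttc
FOS: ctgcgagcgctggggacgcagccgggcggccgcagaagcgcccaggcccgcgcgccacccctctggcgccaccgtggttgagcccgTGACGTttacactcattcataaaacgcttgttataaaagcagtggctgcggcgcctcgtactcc
EGR1: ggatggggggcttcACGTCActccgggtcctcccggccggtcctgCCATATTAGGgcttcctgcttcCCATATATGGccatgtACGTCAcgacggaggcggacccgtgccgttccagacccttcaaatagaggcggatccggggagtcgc
FOSB and FOS show 1 CRE core each, and EGR1 shows 2 CRE cores and 2 CArG boxes. Sites farther than 250 bases before the start were not searched for any gene. In the 300-base windows 38.9% of the 36 immediate-early genes with a promoter held a CRE core, against 13.6% of tested genes, and 8.33% held a CArG box, against 1.56%. CHR was in 25.0% of them. The AP-1 motif (TGACTCA or TGAGTCA) was in 5.56%, against 5.25% of tested genes.

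Of 54 DNA replication genes tested, 12 were lower at 48 h (against 1.73% of all genes), 1 was higher and 41 did not pass, with a median log2 fold change of -0.21. CCNE2, the cyclin E that partners CDK2 at the G1/S boundary, had 14.9, 13.4 and 18.04 CPM at 48 h and 23.7, 29.2 and 27.4 CPM at 24 h. Its groups did not overlap (log2 fold change -0.80, SE 0.126, edgeR adjusted p = 8.54e-04). E2F1, which transcribes this set, had 58.5, 48.0 and 59.2 CPM at 48 h and 83.4, 82.3 and 92.2 CPM at 24 h, a fall of 0.64. Of the MCM helicase, MCM6 fell by 0.71, MCM5 by 0.63 and MCM3 by 0.43. PCNA, the sliding clamp, had 139.7, 120.1 and 129.8 CPM at 48 h and 171, 175 and 191 CPM at 24 h, a fall of 0.46. The calls of MCM2 (-0.46), CDC6 (-0.43) and POLA1 (-0.48) were lost without the 24 h replicate 3, the 48 h replicate 1 or the 48 h replicate 2, among others (largest edgeR adjusted p 0.10, 0.0883 and 0.178). None of the 7 nucleotide supply genes passed: RRM2, the ribonucleotide reductase subunit, chosen after its values were seen, had 119, 114 and 131 CPM at 48 h and 129, 132 and 134 CPM at 24 h. DBF4, the regulatory subunit of the CDC7 kinase, was the 1 member that rose, by 0.60. The count of lower members was 9 to 17 without 1 library. It was 19 with DESeq2 and 25 with no filter on low counts.

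Cell-cycle inhibitors and p53 targets had 2 of 27 higher, CDKN2C (p18, log2 fold change 0.66) and CDKN2D (p19, 0.51), both inhibitors of CDK4 and CDK6. CDKN1A (p21) had 101, 109 and 97.5 CPM at 48 h and 126, 118 and 110.5 CPM at 24 h, and did not pass (edgeR adjusted p = 0.0632). CCND1 (cyclin D1) was level, at 880, 858 and 942 CPM at 48 h and 891, 898 and 888 CPM at 24 h. Of 43 replication-dependent histone genes listed, only 16 were tested in these polyA-selected libraries, and none passed. Their log2 fold changes ran from -1.74 to 1.87.

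**Figure D3:**
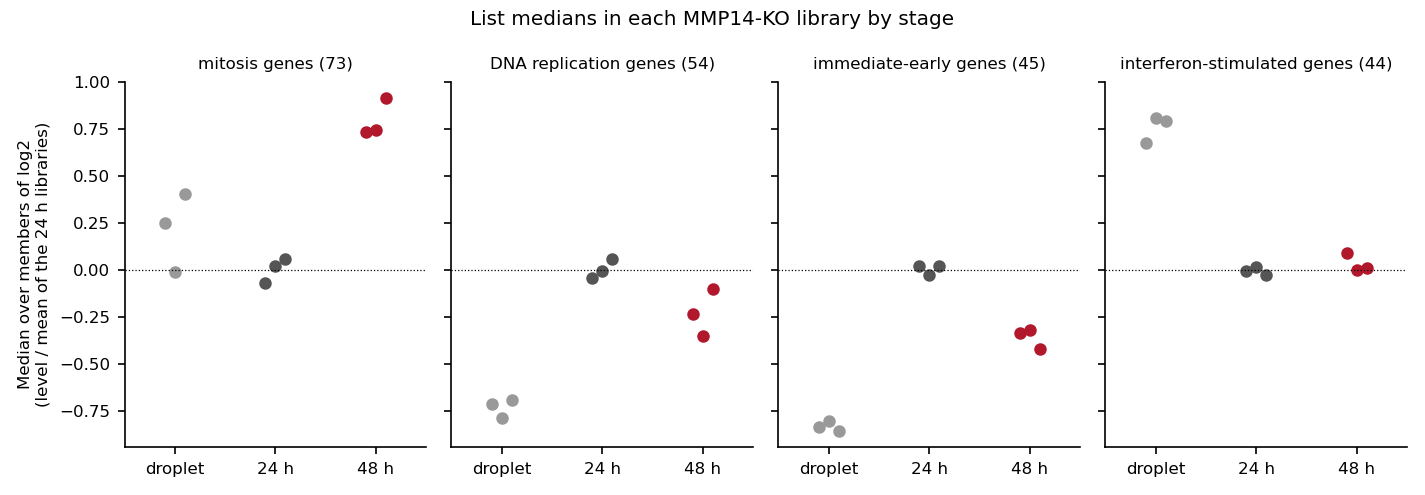
For each MMP14-KO library the point is the median, over the members of a list, of log2 of the level divided by the mean of the 24 h libraries, with stages in order of time. Mitosis genes sat at -0.013 to 0.404 in droplets, -0.071 to 0.057 at 24 h and 0.736 to 0.914 at 48 h, and immediate-early genes at -0.857 to -0.807, -0.025 to 0.022 and -0.421 to -0.319.

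By library, the median of the mitosis genes relative to the 24 h mean was 0.736, 0.742 and 0.914 at 48 h and -0.071, 0.018 and 0.057 at 24 h. DNA replication genes stood at -0.237, -0.355 and -0.101 at 48 h and -0.046, -0.004 and 0.059 at 24 h. The 48 h replicate 3 was the highest of its group for both lists. In droplets the replication genes were at -0.787 to -0.695, lower than in any MMP14-KO collagen library, while the mitosis genes were at -0.013 to 0.404. On the same scale, the Wildtype mitosis medians were 1.21 to 1.41 at 48 h and 0.42 to 0.863 at 24 h.

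The list of matrix metalloproteinases, the family of the targeted gene, had none of 13 members past the threshold in either direction, with 2 at an unadjusted p under 0.05 and a median log2 fold change of -0.21. MMP1, an interstitial collagenase, had 305, 463 and 314 CPM at 48 h and 434, 467 and 468 CPM at 24 h. The 48 h replicate 2 lay among the 24 h libraries and the other 48 h libraries below them. Of 33 other pericellular proteases and inhibitors 3 fell (9.09%, against 1.73% of all genes). Among them, TIMP1, an inhibitor of metalloproteinases, had 934, 805 and 800.4 CPM at 48 h and 1085, 1273 and 1392 CPM at 24 h, with no overlap, and fell by 0.56 (edgeR adjusted p = 0.0068). ADAMTS1, a secreted aggrecanase, fell by 0.62, a call lost without the 24 h replicate 3 or the 48 h replicate 1 (largest edgeR adjusted p 0.0912). PLAU (urokinase) had 417, 373 and 434 CPM at 48 h and 362, 341 and 352 CPM at 24 h and did not pass (edgeR adjusted p = 0.062).

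Of 46 collagens and matrix proteins 7 fell (15.2%, against 1.73% of all genes) and 1 rose (2.17%, against 2.07%). COL7A1, the anchoring fibril collagen, had 84.9, 96.3 and 104 CPM at 48 h and 161, 162 and 184 CPM at 24 h. It fell by 0.83 (SE 0.111, edgeR adjusted p = 3.73e-04), with all 48 h libraries lower. The calls of FBN2 (-1.73), COL16A1 (-0.46), LAMB1 (-0.27), COL8A1 (-0.26), COL18A1 (-0.23) and COL17A1 (0.43) were each lost when 1 of at least 3 libraries was left out. FBN2 was low, with 0.27, 0.66 and 0.40 CPM at 48 h and 1.27, 1.92 and 1.16 CPM at 24 h. Without the 24 h replicate 2 only 2 members were lower, and without the 48 h replicate 1 or the 48 h replicate 3, 3 were. Of 15 collagen processing and crosslinking genes 1 fell (BMP1, -0.27). Of 19 integrins and collagen receptors 2 fell (10.5%), ITGB1 (-0.20) and the collagen uptake receptor MRC2 (-0.30). Both calls were lost without, among others, the 48 h replicate 1 (largest edgeR adjusted p 0.104 and 0.157).

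Targets of mechanical and TGF-beta signalling had few calls. Of 29 YAP-TAZ targets 1 rose, BIRC5, which is also on the mitosis list, and 2 fell, EDN1 (-0.62) and CCN2 (-0.30). Both of those calls were lost without the 48 h replicate 1 (largest edgeR adjusted p 0.0705 for EDN1 and 0.17 for CCN2). CCN1, another target, had 1156, 1012 and 1305 CPM at 48 h and 1198, 1295 and 1440 CPM at 24 h, with overlapping groups. Of 26 MRTF-SRF targets TAGLN, an actin-binding protein, fell by 0.90, with 3.55, 3.71 and 3.52 CPM at 48 h and 7.23, 6.43 and 6.44 CPM at 24 h. ACTG1 rose by 0.17, a call lost without any one 24 h library, the 48 h replicate 1 or the 48 h replicate 3 (largest edgeR adjusted p 0.202). Of 36 TGF-beta genes 4 fell (11.1%, against 1.73% of all genes), among them JUNB, the inhibitory SMAD7 (-0.56) and PMEPA1 (-0.41).

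Chemokines and inflammatory cytokines had 3 lower (7.69%, against 1.73% of all genes) and 1 higher (2.56%, against 2.07%) of 39. CXCL3 had 5.35, 7.75 and 4.71 CPM at 48 h and 14.01, 15.1 and 14.9 CPM at 24 h, and fell by 1.31 (edgeR adjusted p = 0.00303). CXCL2 fell by 1.23 and NFKBIZ, a nuclear partner of NF-kB, by 0.83, and both calls were lost without, among others, the 48 h replicate 1 or the 48 h replicate 3 (largest edgeR adjusted p 0.104 and 0.0785). NFKB1 was higher by 0.20, a call lost without any one 48 h library, the 24 h replicate 2 or the 24 h replicate 3 (largest edgeR adjusted p 0.162). CXCL8 had 232, 419 and 200.2 CPM at 48 h and 296, 291 and 275 CPM at 24 h. The 48 h replicate 2 was above and the other 48 h libraries were below all 24 h libraries.

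**Figure D4:**
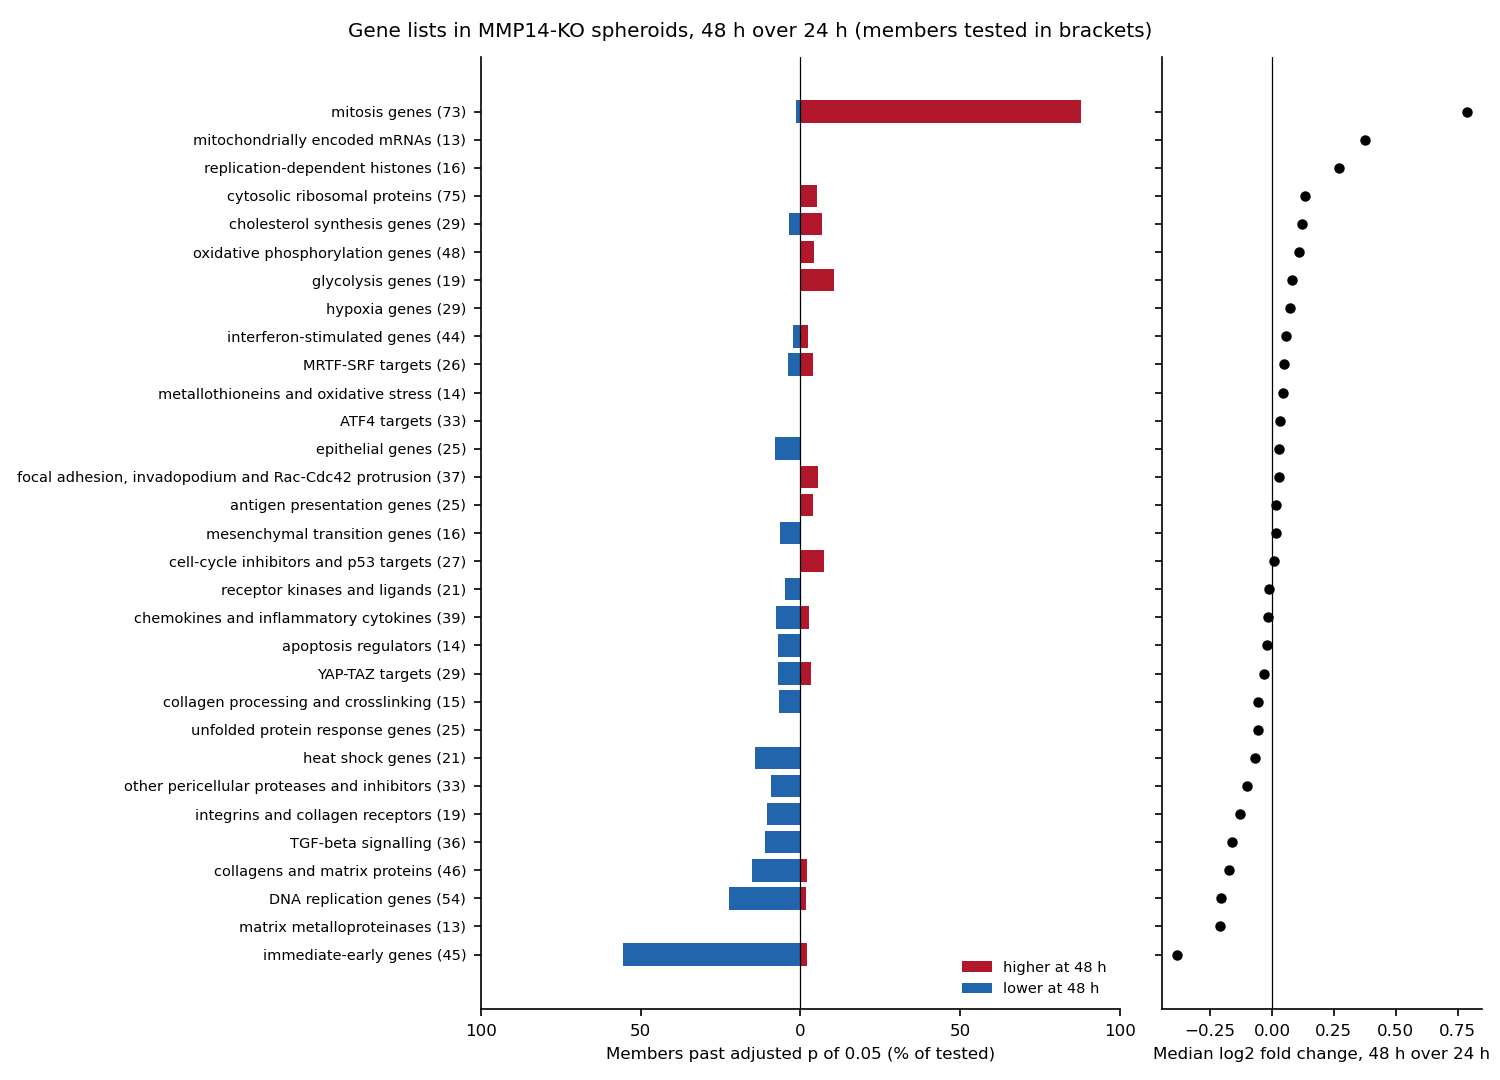
For each of 31 gene lists, with the number of tested members in brackets, the left panel gives the percentage of members that passed an adjusted p of 0.05 upward (red) or downward (blue) at 48 h against 24 h, and the right panel gives the median log2 fold change. Mitosis genes (64 of 73 higher) and immediate-early genes (25 of 45 lower) stand at the ends, and no other list shown had over 12 members called in 1 direction.

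The remaining lists had few calls. For comparison, 2.07% of all genes tested were higher and 1.73% lower. None passed among 29 hypoxia genes (4 at an unadjusted p under 0.05), 33 ATF4 targets (3), 25 genes of the unfolded protein response (2) and 14 metallothioneins and oxidative stress genes (0). HSPA5, the chaperone of the endoplasmic reticulum, had 1108, 1262 and 1045 CPM at 48 h and 1242, 1152 and 1075 CPM at 24 h. Of 21 heat shock genes 3 fell (14.3%). They were HSPA8 (-0.32) and the near-identical pair HSPA1A and HSPA1B (-0.36 and -0.32), whose reads cannot be assigned with certainty. The call of HSPA1A was lost without, among others, the 24 h replicate 1 (largest edgeR adjusted p 0.0915). Of 44 interferon-stimulated genes IFIT1 was higher by 0.25 and IFI44 lower by 0.27, both calls lost without the 24 h replicate 2 and others (largest edgeR adjusted p 0.131 and 0.145). Of 16 mesenchymal transition genes SNAI1 fell by 0.89, at 1.05, 0.845 and 1.19 CPM at 48 h and 1.96, 1.69 and 2.11 CPM at 24 h, a call lost without the 48 h replicate 2 and others (largest edgeR adjusted p 0.099). VIM was level, with a log2 fold change of 0.05. Of 25 epithelial genes 2 passed, both lower, among them the hair keratin KRT81 (-0.62). Of 19 glycolysis genes 2 rose, of 37 genes of focal adhesion and Rac-Cdc42 protrusion 2 rose, of 25 antigen presentation genes 1 rose, of 29 cholesterol synthesis genes 2 rose and 1 fell, and of 21 receptor kinases and ligands 1 fell (HBEGF, -0.27). Each of these calls but that of HBEGF was lost when some 1 of the 6 libraries was left out.

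The share of counts from mitochondrially encoded genes was 3.68%, 3.52% and 2.88% at 48 h and 2.88%, 2.68% and 2.94% at 24 h, so that the 48 h replicate 3 lay inside the 24 h range. All 13 mitochondrially encoded mRNAs had a positive log2 fold change (median 0.38) and none passed, with 3 at an unadjusted p under 0.05. That count depends on the model: 11 of 13 passed as higher with no filter on low counts, and 4 of 13 in a fit of the 6 libraries alone. Of 75 cytosolic ribosomal protein genes 4 rose, with 75 positive (median 0.13) and 31 at an unadjusted p under 0.05. Of 48 nuclear-encoded oxidative phosphorylation genes 2 rose, with 45 positive (median 0.11) and 19 at an unadjusted p under 0.05. Without the 48 h replicate 2, 13 ribosomal protein and 8 oxidative phosphorylation genes rose, and without the 48 h replicate 1, 0 and 0 did, with both medians at 0.04. With all libraries, each of these calls was lost when some 1 of the 6 libraries was left out. Ribosomal protein genes took 3.61%, 3.07% and 3.29% of counts at 48 h and 3.03%, 3.08% and 3.09% at 24 h. The mitosis medians of replicates 1, 2 and 3 were 0.736, 0.742 and 0.914 at 48 h and -0.071, 0.018 and 0.057 at 24 h. The part of the mitochondrial share in the other changes was not tested.

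The Wildtype pair shows what the same day did with MMP14 intact, and it shares no library with the MMP14-KO pair. In Wildtype 2248 genes passed (13.2%), with 1077 higher (6.32%) and 1171 lower (6.88%); 70 rose (0.411%) and 105 fell (0.617%) by at least 2-fold. Of the 353 genes higher in MMP14-KO, 252 were also higher in Wildtype, which is 71.4% of the MMP14-KO list and 23.4% of the Wildtype list. Of the 295 lower in MMP14-KO, 234 were also lower in Wildtype (79.3% and 20%). None was called in opposite directions. Across all 17030 genes tested, the log2 fold changes of the 2 genotypes had a Pearson r of 0.272 and a Spearman rho of 0.44, given as a description across genes. Over the 11405 genes with a mean of at least 5 CPM in MMP14-KO spheroids at 24 h, r was 0.711 and rho 0.647.

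No gene passed the test of the difference between the genotypes' second days (edgeR's quasi-likelihood interaction test, Benjamini-Hochberg adjustment), and 1107 of 17030 (6.50%) had an unadjusted p under 0.05. DESeq2 called 5 genes: COL6A2, FTL and CDKN1A higher and TMEM71 and ADGRF1 lower in the MMP14-KO minus Wildtype difference. Without the Wildtype 24 h replicate 1, edgeR called 2, WDR62 higher and TMEM71 lower. With no filter on low counts edgeR called 160 higher and 80 lower, so the count of 0 depends on the filter. The genotypes' counts of 648 and 2248 therefore do not show by themselves that more genes moved in Wildtype.

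TMEM71, a membrane protein, had 12.1, 11.6 and 11.4 CPM at 48 h and 5.14, 6.31 and 5.62 CPM at 24 h in MMP14-KO, against 15.1, 15.95 and 15.5 CPM at 48 h and 5.17, 3.79 and 3.78 CPM at 24 h in Wildtype. It rose in both, by 1.04 in MMP14-KO and 1.88 in Wildtype, a difference of -0.84 (SE 0.165, edgeR adjusted p = 0.177). COL6A2, a collagen VI chain, had 164, 147 and 146 CPM at 48 h and 192, 183 and 159 CPM at 24 h in MMP14-KO, against 33.9, 32.2 and 28.5 CPM at 48 h and 54.5, 54.8 and 52.2 CPM at 24 h in Wildtype. The difference of the log2 changes was 0.55 (SE 0.104, edgeR adjusted p = 0.177), with -0.22 in MMP14-KO and -0.77 in Wildtype. CDKN1A differed by -0.21 in MMP14-KO and by -0.63 in Wildtype, and JUN by -0.11 and -0.48.

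The counts below stand against unlike shares over all genes. Of all genes tested, 2.07% were called higher in MMP14-KO and 6.32% in Wildtype, and 1.73% and 6.88% lower. Within the lists, mitosis genes had 64 of 73 higher in MMP14-KO and 50 of 73 in Wildtype, with medians of 0.79 and 0.56. Immediate-early genes had 25 of 45 lower in MMP14-KO and 30 of 45 in Wildtype (medians -0.39 and -0.57), and replication genes 12 of 54 and 37 of 54 (medians -0.21 and -0.47). None of these members passed the interaction test, in which 7 mitosis, 11 immediate-early and 11 replication genes had an unadjusted p under 0.05. KIF20A rose by 1.86 in MMP14-KO and 1.99 in Wildtype, and ATF3 changed by -2.35 and -2.40. Chemokines and cytokines had 3 of 39 lower in MMP14-KO and 12 of 39 in Wildtype. There the Wildtype 24 h replicate 1 was high: CXCL8 had 186, 200.1 and 129 CPM at 48 h and 646, 234 and 254 CPM at 24 h in Wildtype.

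**Figure D5:**
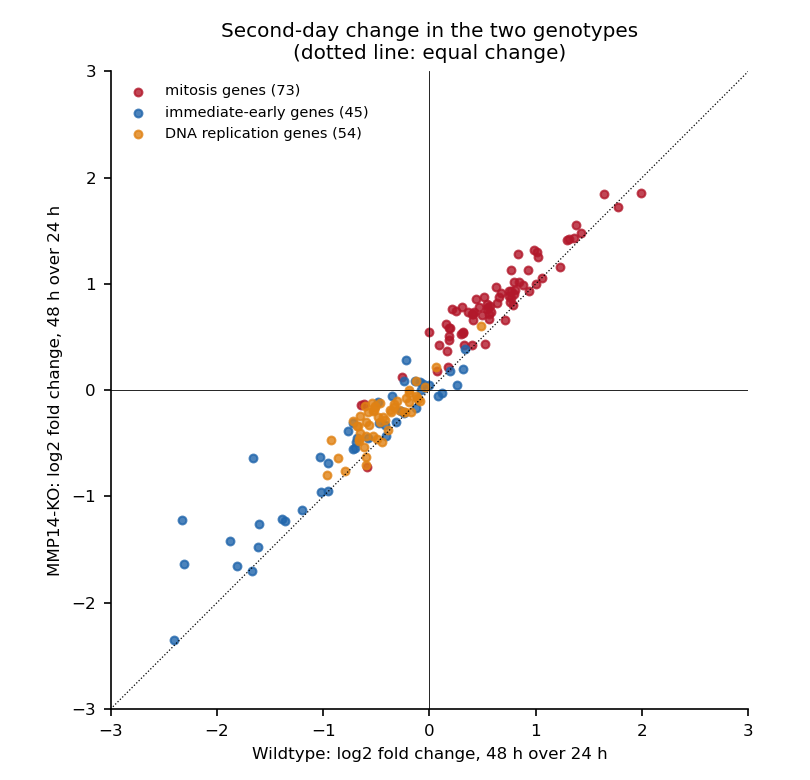
The log2 fold change at 48 h over 24 h in MMP14-KO spheroids (vertical) is plotted against that in Wildtype spheroids (horizontal) for the members of 3 lists, and the dotted line marks equal change. Mitosis genes lie mostly in the upper right (70 of 73 above 0 in MMP14-KO and 68 of 73 in Wildtype). Replication and immediate-early genes lie mostly in the lower left. Most members of each list lie above the line: 64 of 73 mitosis, 49 of 54 replication and 37 of 45 immediate-early genes. The median difference over all genes was 0.0065, and no gene passed the interaction test.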

How the data were processed

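RNA was polyA-selected and sequenced as 151 bp pairs, per the labels' protocols. Per the submitters' processing notes, cutadapt 2.3, STAR 2.7.8a and RSEM 1.3.3 were used on GRCh38; the annotation release and strand setting were not stated there. The values deposited by the authors are RSEM expected counts for each gene, all of them whole numbers. Of 62714 rows, 4 reporter rows without reads were left out, and 58274 genes were matched to GENCODE 29 for coordinates, class and overlaps.

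Testing used edgeR 4.0.16 under R 4.3.3. Its filterByExpr (minimum count 10) kept 17030 genes, TMM factors scaled the libraries, and all 18 libraries entered 1 robust quasi-likelihood model with a term for each group (12 residual degrees of freedom). Benjamini-Hochberg adjustment ran over all genes tested, with a threshold of 0.05. The SE is the absolute log2 fold change divided by the square root of the F statistic. Levels are CPM with TMM factors, except in the marker check.

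Named genes are the 14 largest rises and falls at 5 CPM or more without overlap, the 12 smallest interaction p, up to 6 called members per list and role at 1 CPM or more, and a fixed set; not all are printed, and 1 gene list and some genes are not reported here. The lists, the motifs and the members were chosen with earlier results of these data known. The steps were tested on simulated counts. Alternatives were DESeq2 1.42.0, other scalings, no filter, a smaller fit, a replicate block and leaving out each library. No pair of libraries agreed within sampling noise.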

Additional observations from a re-analysis of the deposited data

How the results depend on the processing

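With 3 libraries a group, the number of calls moves with each library. Of 114 named genes that passed, 74 stayed past 0.05 without any one of the 6 libraries and 40 did not, and none of the 114 changed direction in any alternative run. For MMP14-KO at 48 h against 24 h, leaving out 1 library gave 164 to 452 higher and 159 to 402 lower genes (353 and 295 with all), and at least 2-fold 36 to 47 higher and 18 to 37 lower (43 and 27). The most, 854 in all, came without the 48 h replicate 2.

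DESeq2 called 448 higher and 473 lower, and 34 and 16 at least 2-fold. No filter on low counts gave 480 higher and 621 lower, and 78 and 77 at least 2-fold. A fit of the 6 libraries alone gave 234 higher and 204 lower. RLE size factors gave 299 higher and 324 lower, and library size alone 287 and 362, so that the higher share was 48.0% and 44.2% against 54.5%. With the replicate number as a block there were 430 higher and 379 lower genes, 45 and 29 at least 2-fold, and 0 in the interaction; the block ended no named call. The labels do not say whether libraries with the same number belong together. Deviations from the group means correlated at 0.01, 0.015 and 0.038 between MMP14-KO 48 h and 24 h libraries of the same number. With different numbers they correlated at -0.029 to 0.014. These values cannot decide whether the numbers mark pairs, since each deviation is taken from a mean of only 3 libraries.

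The interaction had 0 calls in the model reported. DESeq2 called 3 higher and 2 lower, no filter 160 and 80, and the fits without 1 library 0 to 1 in each direction. The causes were not tested. Depth limits low genes: of those that rose or fell at least 2-fold, 3 and 7 were under 1 CPM.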

Other observations

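Other genes that moved over the second day in MMP14-KO spheroids, outside the lists, are given here as single genes, picked after their values were seen. The alpha-tubulin TUBA1C averaged 636 CPM at 48 h and 454 CPM at 24 h (log2 fold change 0.49), the beta-tubulin TUBB4B 436 CPM at 48 h and 311 CPM at 24 h (0.49), and TUBA1B 1341 CPM at 48 h and 989 CPM at 24 h (0.44). Alpha-tubulins share long stretches of sequence, so their reads may be split between copies. KPNA2, a nuclear import receptor, averaged 358 CPM at 48 h and 219 CPM at 24 h (0.71), and GTSE1, a microtubule-binding protein of G2, 43.4 CPM at 48 h and 21.5 CPM at 24 h (1.01). Each of these passed in MMP14-KO (edgeR with Benjamini-Hochberg adjustment, adjusted p = 1.72e-05 for TUBA1C, 3.72e-05 for TUBB4B, 0.00103 for TUBA1B, 5.63e-06 for KPNA2 and 7.75e-05 for GTSE1).

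Among genes that fell, ARRDC3, an arrestin-domain protein, averaged 124 CPM at 48 h and 232 CPM at 24 h (-0.90), and RGS2, a brake on G protein signalling, 12.4 CPM at 48 h and 23.1 CPM at 24 h (-0.89). TSC22D3 (GILZ), a glucocorticoid-induced gene, averaged 49.7 CPM at 48 h and 75.0 CPM at 24 h (-0.59), and PODXL, an anti-adhesive sialomucin, 263 CPM at 48 h and 376 CPM at 24 h (-0.52). The clock gene PER3 fell by 0.47 and BMAL1, its activator, rose by 0.42, while PER2 did not pass (-0.09). PDK4, which shuts pyruvate out of the mitochondrial cycle, averaged 85.0 CPM in droplets, 28.2 CPM at 24 h and 17.7 CPM at 48 h.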
